A study of Homo sapiens with 6 samples.

Results

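The endoplasmic reticulum (ER) chaperones and folding response were described here by 40 genes, chosen by symbol: the sensors and transcription factors of the ER unfolded protein response, the chaperones of the ER lumen and membrane, the disulfide isomerases, the ER-associated degradation genes and a few membrane and export proteins. In the table of signals they had 53 of the 47231 probes. Of the 20046 genes named on the platform 39 were members, and the remaining member, HERPUD1, had no named probe. A further 3 (ERN1, PDIA3 and SEL1L) had 1 probe each, which was not above background, so 36 were tested. A silent probe alone does not tell whether its gene was expressed. The list was drawn up with earlier results of the same arrays in view, so counts over it are descriptions. Expression was measured on Illumina HT-12 v4 BeadChips in HEK-293T, a human embryonic kidney line, transduced with a lentivirus carrying RUNX1, a transcription factor of blood development, or with a control lentivirus that held only multiple cloning sites (MCS). Both groups were transduced at 10 MOI, selected with 1 µg/ml puromycin and harvested on day 7, and each had 3 arrays. The cells are 1 line, and no untransduced cells were analysed here.

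Proteins that enter the ER are folded there by chaperones such as BiP, calreticulin and calnexin, and their disulfide bonds are made and rearranged by disulfide isomerases. When unfolded proteins collect, the sensors ATF6, IRE1 and PERK start the unfolded protein response: ATF6 is cut in the Golgi by the proteases S1P and S2P to free a transcription factor, and IRE1 splices the XBP1 mRNA so that it encodes an active one. Both factors raise the transcription of chaperone and degradation genes, and proteins that cannot be folded are passed to ER-associated degradation, which carries them back to the cytosol for the proteasome.

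The ER stress response element (ERSE), spelled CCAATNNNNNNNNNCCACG or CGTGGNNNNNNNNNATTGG on the other strand, is the site through which ATF6 and XBP1 act with the factor NF-Y. It was looked for in RefSeq promoter windows of GRCh38.p14, from 250 bases before to 50 bases after each transcript start, on both strands. The windows held 36 of the 40 members (PDIA3, SEC24D, DERL1 and DERL3 were not matched). An ERSE was found in 7 of the 36 members (19.4%), beside 25 of all 27305 genes (0.0916%). The stretches around these sites are shown because the chaperones among these genes carry the values given below. The CCAAT and CCACG parts (or their complements) are in capitals, and each stretch is read 5′ to 3′ on the strand of its gene.
HSPA5, chr9:125241371-125241429, minus strand: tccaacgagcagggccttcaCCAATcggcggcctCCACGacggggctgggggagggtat
HSP90B1, chr12:103930196-103930254, plus strand: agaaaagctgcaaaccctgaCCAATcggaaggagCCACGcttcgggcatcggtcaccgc
HSP90B1, chr12:103930301-103930359, plus strand: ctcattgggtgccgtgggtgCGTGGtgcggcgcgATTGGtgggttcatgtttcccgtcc
CALR, chr19:12938364-12938422, plus strand: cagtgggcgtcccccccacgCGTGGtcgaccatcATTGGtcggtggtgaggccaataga
CANX, chr5:179698773-179698801, plus strand: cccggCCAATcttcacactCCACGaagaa
CRELD2, chr22:49918534-49918592, plus strand: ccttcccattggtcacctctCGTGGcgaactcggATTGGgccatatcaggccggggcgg
XBP1, chr22:28800583-28800641, minus strand: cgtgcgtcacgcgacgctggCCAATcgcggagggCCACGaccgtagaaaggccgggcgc
PDIA6, chr2:10812848-10812876, minus strand: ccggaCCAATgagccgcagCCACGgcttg

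The site of HSPA5 lay 66 to 48 bases before its start, and those of HSP90B1 lay 194 to 176 and 89 to 71 bases before. CANX and PDIA6 have several starts, and their sites lay downstream of another start of the same gene. A shorter element, ERSE-II (ATTGGNCCACG or CGTGGNCCAAT), was found in HERPUD1, SDF2L1 and HYOU1, or 3 of 36 members (8.33%) beside 19 of all genes (0.0696%). HYOU1 held 2 of them, given here because the first overlaps another kind of element.
HYOU1, chr11:119057360-119057410, minus strand: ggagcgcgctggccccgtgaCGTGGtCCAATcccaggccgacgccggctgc
HYOU1, chr11:119057254-119057304, minus strand: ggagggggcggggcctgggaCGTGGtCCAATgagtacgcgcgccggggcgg

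That other element, the core of the XBP1-bound UPRE (TGACGTGG or CCACGTCA), was found in HYOU1, DNAJC10 and TXNDC5, or 8.33% of the members beside 0.927% of all genes, and in HYOU1 it overlapped the first ERSE-II. The RUNX core (TGTGGT or ACCACA) was found in CANX, CREB3L2 and PDIA6, or 8.33% of the members beside 15.6% of all genes. A match describes letters in a window and not a bound site.

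**Figure D1:**
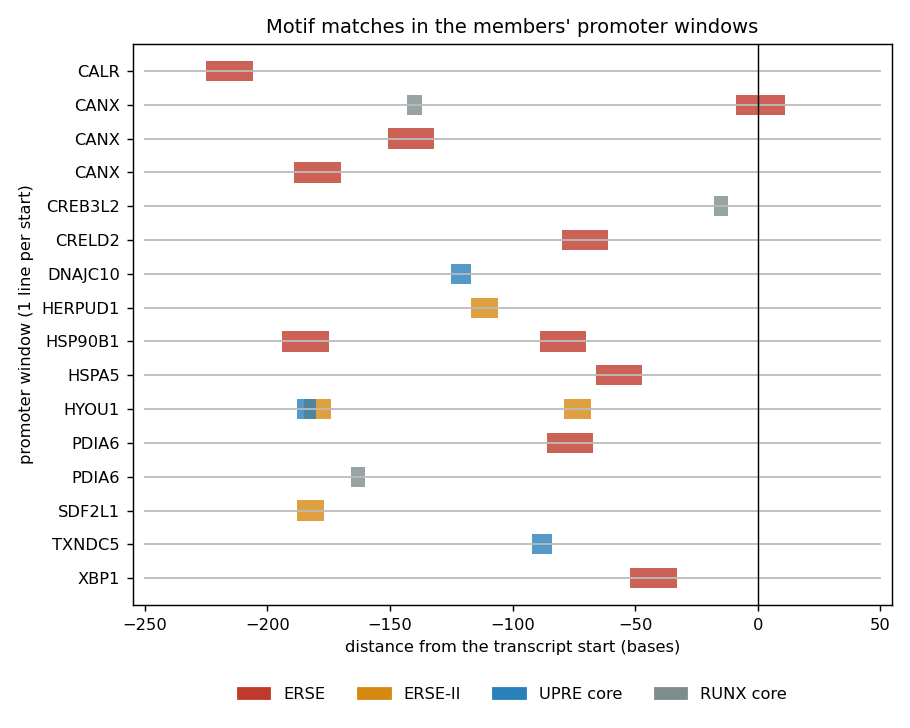
Each line is 1 promoter window of a member with a match, from 250 bases before to 50 bases after a transcript start (x axis, bases from the start), and coloured blocks mark the ERSE, ERSE-II, UPRE core and RUNX core. ERSE matches lie in windows of 7 members, and CANX has windows for 3 starts that hold the same site.

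Of the series as a whole, 18096 to 19321 probes were detected per array at a detection p under 0.05, and 18867 probes detected on at least 3 arrays gave 11129 genes for the test, the brightest probe standing for each gene. Values are log2 expression after background correction from the detection p-values, an offset of 16 and quantile normalization. RUNX1 itself was detected in 1 of 18 probe signals and passed in neither group. Whether these probes lie in the transduced sequence was not examined, so the arrays do not check the transduction labels. Of the markers of HEK-293T cells, 7 of 9 passed, among them VIM, KRT8, KRT18, NEFL and NEFM, PAX2 was in 0 of 18 signals, of 4 blood-cell markers with a probe CD14 and CD34 passed and PTPRC and SPI1 did not. The first principal component of 11001 genes outside the lists held 66.6% of the variance and crossed the transductions: RUNX1 replicates 1 and 2 and MCS replicate 1 scored -21.1, -21.2 and -25.4, and the remaining arrays, RUNX1 replicate 3 with MCS replicates 2 and 3, scored 26.5, 15.0 and 26.2. These are called the first and the second side. RUNX1 replicate 3 and MCS replicate 1 thus each lay with the arrays of the other transduction. Nothing in the labels names a batch, whether arrays were exchanged was not tested, and RUNX1 minus MCS stands throughout for the arrays as labelled. Leaving out both would make the groups the same as the sides, so each array was left out in turn. In these bulk samples, fewer cells with a transcript and less of it per cell cannot be told apart.

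The transductions were first compared gene by gene, to ask whether RUNX1 overexpression changed any member. At an adjusted p of 0.05 (limma, Benjamini-Hochberg over 11129 genes) 0 members and 0 genes of the whole table (0%) differed. The adjusted p of each tested member was 1.00. Without adjustment 251 genes (2.26%) had a p under 0.05 and 0 of the 36 tested members did, and by the methods' t-test 360 genes (3.23%) and 2 members, CALR and CANX, did. With weights estimated for each array, by contrast, limma called 897 genes (8.06%) and 3 of 36 members (8.33%), OS9, WFS1 and TXNDC5, a share near that of all genes, and the weights it gave to RUNX1 replicate 3 and MCS replicate 1 were 0.279 and 0.314, beside 0.778 to 4.20 for the others. The log2 differences of the members, RUNX1 minus MCS, ran from -0.29 for PDIA5 to 0.35 for OS9, with a median of 0.057 beside 0.021 over all genes. Both ends moved with the arrays used: with 1 array left out PDIA5 ran from -0.58 to -0.088 and OS9 from 0.18 to 0.56. Without MCS replicate 1 the members' median was 0.0034, beside 0.035 over all genes.

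**Figure D2:**
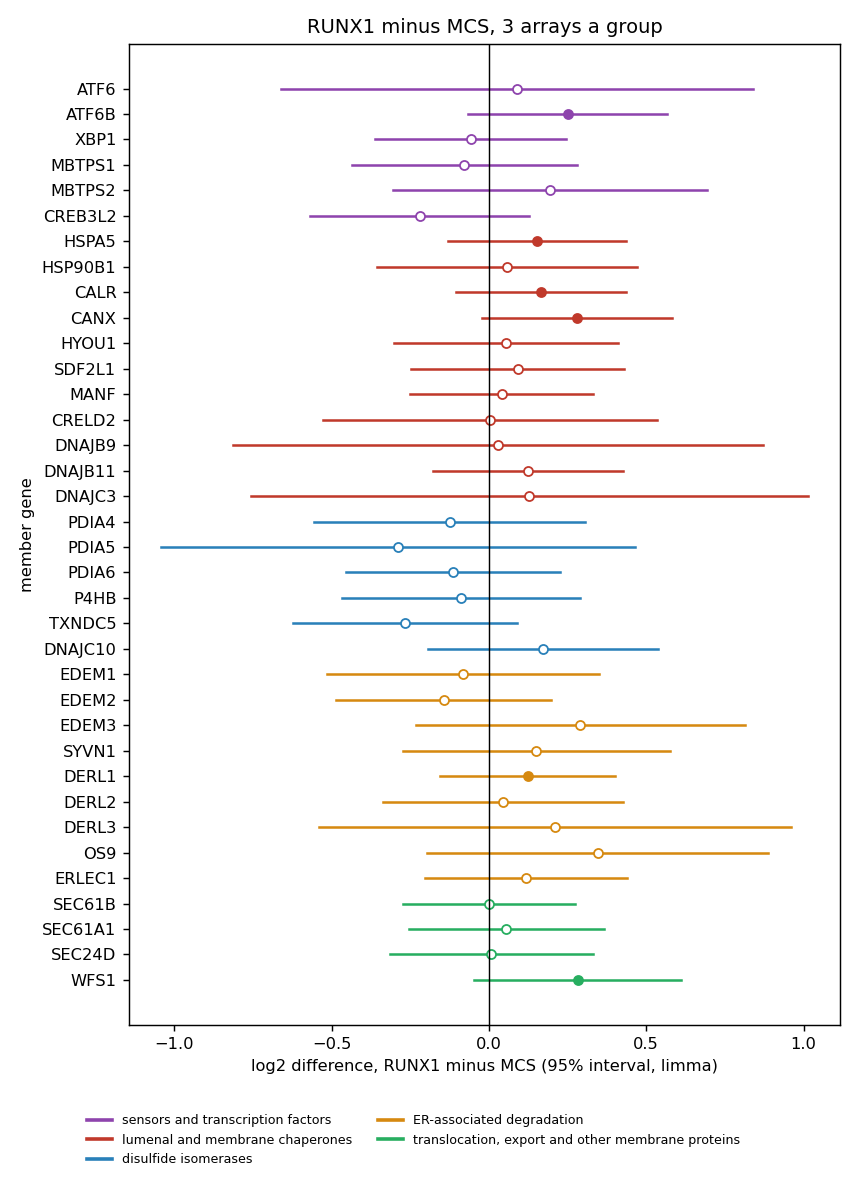
The x axis is the log2 difference, RUNX1 minus MCS (3 arrays a group), with the 95% interval of limma as a line, and each row is 1 of the 36 tested members, coloured by role. Each interval includes 0, and filled circles mark the 6 members whose RUNX1 arrays were all above their MCS arrays.

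Of the tested members, 25 of 36 had a higher mean with RUNX1 (69.4%), beside 55.4% of all genes. Under median scaling 14 of 36 did, beside 28.6% of all genes, and without normalization between arrays 6 of 36 did, beside 15.2%. The median over all genes moved to -0.088 and -0.17 there. Set against the median of all genes, the members' median was higher by 0.036 after quantile normalization and by 0.071 under both of these. The latter value is the same under both by construction, since median scaling subtracts a constant from each array. On MCS replicate 1 the members were lowest, with 8 of 36 above their own mean over the 6 arrays and a median deviation of -0.10, and on the other arrays 15 to 21 were above it. Differences below are given after quantile normalization.

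In the lumenal and membrane chaperones the differences ran one way after quantile normalization. All 11 had a higher mean with RUNX1, with log2 differences of 0.0038 to 0.28 (median 0.092), beside 55.4% of all genes. Under median scaling 5 of 11 did, beside 28.6% of all genes, and without normalization 1 of 11 did, beside 15.2%. HYOU1 is counted by its brightest probe, and its difference was -0.11 with the mean of its detected probes. The count also rested on single arrays: it was 6 of 11 without MCS replicate 1, where HSP90B1, HYOU1, MANF, DNAJB9 and DNAJC3 turned, 8 of 11 without RUNX1 replicate 3 or with array weights, and 10 of 11 with any other array left out. Relative to the median of all genes, with all 6 arrays, 10 of 11 were higher under quantile, cyclic loess and median scaling. The count without scaling equals that under median scaling by construction. None passed the test.

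HSPA5 (BiP, chromosome 9, 125234853 to 125241343), the Hsp70 of the ER lumen and the classical target of ATF6, had log2 values of 9.67, 9.75 and 9.87 on RUNX1 replicates 1 to 3 and of 9.61, 9.64 and 9.57 on MCS replicates 1 to 3. Each RUNX1 array was above each MCS array, with a gap of 0.025 between the groups. The difference was 0.15 (SE 0.12, 95% interval -0.13 to 0.44, adjusted p 1.00 in limma), and it turned to -0.036 without normalization. CALR (calreticulin, chromosome 19, 12938609 to 12944489), a lumenal lectin chaperone of glycoproteins, was at 10.13, 10.17 and 10.20 with RUNX1 and at 10.04, 9.94 and 10.03 with MCS. Its groups were apart by 0.095, the widest gap among the members, with a difference of 0.17 (-0.10 to 0.44) that was -0.024 without normalization. CANX (calnexin, chromosome 5, 179678656 to 179731641), the membrane-bound partner of calreticulin, was at 10.03, 10.04 and 9.85 with RUNX1 and at 9.58, 9.73 and 9.77 with MCS. It had the smallest p of the members, with a difference of 0.28 (SE 0.13, -0.02 to 0.58, fold 1.21, p 0.065 and adjusted p 1.00 in limma), and its second probe was also higher on each RUNX1 array, by 0.19.

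The 6 members whose groups did not overlap were these 3 and ATF6B, DERL1 and WFS1. All were higher with RUNX1, and 0 members were lower on each RUNX1 array. The 6 are 16.7% of the tested members, beside 3.81% of all genes that were apart in this direction, 2.75% in the other and 6.56% in either. Under median scaling and without normalization 0 members and 0.656% and 0.306% of all genes were apart with RUNX1 higher. The exact permutation p of each of the 6 was 0.1 (two-sided), the smallest that 3 arrays against 3 allow.

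WFS1 (wolframin, chromosome 4, 6269850 to 6303265), an ER membrane protein, was at 8.46, 8.58 and 8.32 with RUNX1 and at 8.30, 8.01 and 8.19 with MCS, a difference of 0.28 (SE 0.14, -0.05 to 0.61). The lowest RUNX1 array was 0.016 above the highest MCS array. DERL1 (derlin-1), a membrane protein of the degradation channel, was at 9.29, 9.30 and 9.13 with RUNX1 and at 9.11, 9.12 and 9.12 with MCS. The MCS arrays of DERL1 lay close together and RUNX1 replicate 3 was only 0.011 above them, and the difference of 0.12 (-0.15 to 0.40) was -0.0065 under median scaling and -0.085 without normalization.

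**Figure D3:**
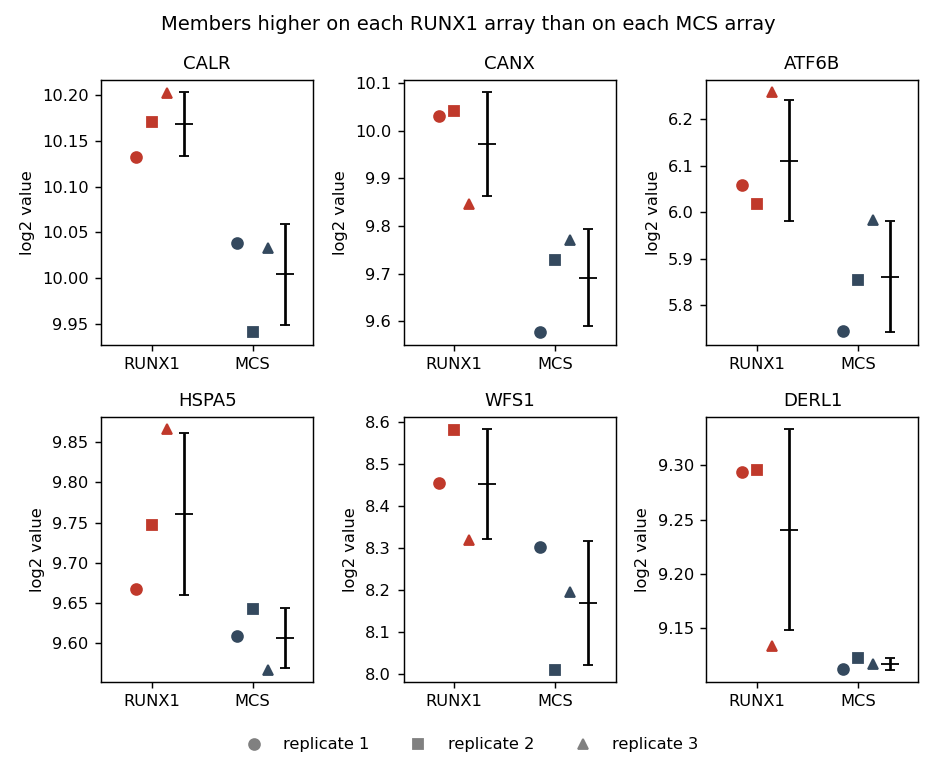
Log2 expression values (y axis, a separate range for each gene) of the 6 members whose RUNX1 arrays were all above their MCS arrays, with 1 symbol per array and its shape giving the replicate number, and the mean with SD (n = 3) as bars. The gap between the groups runs from 0.011 for DERL1 to 0.095 for CALR.

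The other chaperones overlapped between the groups. HSP90B1 (GRP94), the Hsp90 of the ER lumen, was at 13.22, 13.13 and 13.48 with RUNX1 and at 12.97, 13.21 and 13.48 with MCS. Replicate 3 was the highest array in both groups, and the difference of 0.06 (-0.35 to 0.47) turned negative under median scaling (-0.0050) and without normalization (-0.084). HYOU1 (GRP170), an Hsp70-like exchange factor of BiP, had a difference of 0.06 for its brightest probe and -0.27 for its second, so no direction could be given. MANF and SDF2L1, which also act with BiP, had differences of 0.040 and 0.092, and that of CRELD2, another gene known as an ER stress target, was 0.0038. DNAJB11 (ERdj3), a co-chaperone that hands clients to BiP, was at 11.88, 11.73 and 11.69 with RUNX1 and at 11.62, 11.54 and 11.76 with MCS.

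DNAJB9 (ERdj4) and DNAJC3 (P58IPK), also J-domain partners of BiP, had the widest ranges over the arrays of all members, 1.30 and 1.26, beside a median range of 0.475 for the members and 0.560 for all genes. DNAJB9, an XBP1 target that acts in degradation, was at 9.31, 9.45 and 10.37 with RUNX1 and at 9.07, 9.90 and 10.09 with MCS. The 3 arrays of the second side were above the other 3 arrays, so that within each group the arrays were far apart while the group means, 9.71 ± 0.57 and 9.69 ± 0.54 (SD, n = 3), were close. DNAJC3 was at 6.73, 6.88 and 7.85 with RUNX1 and at 6.59, 6.81 and 7.68 with MCS, with replicate 3 far above the others in both groups. The 95% intervals of their differences, -0.81 to 0.87 and -0.76 to 1.01, were the widest of the list.

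**Figure D4:**
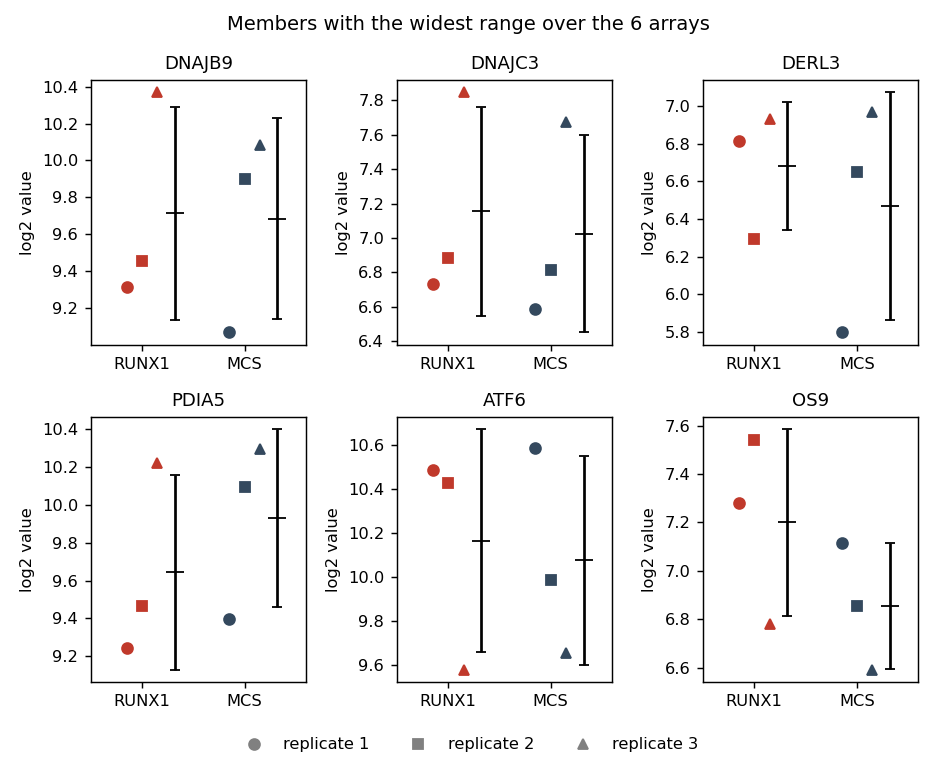
Log2 expression values (y axis, a separate range for each gene) of the 6 members with the widest range over the 6 arrays, with 1 symbol per array and its shape giving the replicate number, and the mean with SD (n = 3) as bars. RUNX1 replicate 3 and MCS replicate 3 are high for DNAJB9, DNAJC3 and PDIA5 and low for ATF6 and OS9.

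Among the sensors and transcription factors, 3 of 6 tested members had a higher mean with RUNX1, beside 55.4% of all genes. Under median scaling 2 of 6 did, beside 28.6% of all genes, and without normalization 1 of 6 did, beside 15.2%. The only probe of ERN1, which encodes IRE1, was not above background on any of the 6 arrays. ATF6 (chromosome 1, 161766320 to 161964070) was at 10.49, 10.43 and 9.58 with RUNX1 and at 10.59, 9.99 and 9.65 with MCS. The arrays of the first side were the high ones, and the difference of 0.09 (-0.66 to 0.84) was -0.019 under median scaling and -0.098 without normalization. ATF6B (chromosome 6, 32115264 to 32128246), the ATF6 paralog, was at 6.06, 6.02 and 6.26 with RUNX1 and at 5.74, 5.85 and 5.98 with MCS, a difference of 0.25 (SE 0.13, -0.07 to 0.57). Its groups were 0.033 apart for the brightest probe and overlapped for the second, whose difference was 0.23. XBP1, the factor activated by IRE1, was at 12.97, 12.90 and 13.02 with RUNX1 and at 12.89, 12.99 and 13.17 with MCS, a difference of -0.06 (-0.36 to 0.25). The probes were not placed against the stretch that IRE1 removes, so splicing of XBP1 was not measured.

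The proteases that cut ATF6 showed no common direction. MBTPS1 (S1P) was at 9.88, 9.97 and 9.59 with RUNX1 and at 10.05, 9.80 and 9.82 with MCS. Both of its probes separated the sides without overlap, one with higher and the other with lower values on the first side. MBTPS2 (S2P) had a difference of 0.19 for the brightest probe and -0.21 for the second, and its highest value was that of RUNX1 replicate 1, 8.59 beside 7.84 to 8.21 on the other 5 arrays. CREB3L2, a membrane-bound factor related to ATF6, was at 9.94, 10.01 and 9.96 with RUNX1 and at 9.94, 10.36 and 10.28 with MCS, a difference of -0.22 (-0.57 to 0.13).

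The disulfide isomerases ran mostly the other way, with a lower mean with RUNX1 in 5 of 6 tested members and a median difference of -0.12. The count was 5 of 6 also under median scaling and cyclic loess and 6 of 6 without normalization. Of all genes, 55.4% had a higher mean with RUNX1 after quantile normalization, 28.6% under median scaling and 15.2% without normalization. Most genes were thus lower under median scaling and without normalization. Relative to the median of all genes, 5 of 6 isomerases were lower under each of these settings. Without MCS replicate 3 the count with a lower mean was 3 of 6 and the median -0.0037, and with any other array left out it was 5 of 6. None passed the test, and the only probe of PDIA3 (ERp57), the isomerase of the calnexin cycle, was not above background on any array. TXNDC5 (ERp46) was at 11.69, 11.67 and 11.90 with RUNX1 and at 11.80, 12.09 and 12.18 with MCS, a difference of -0.27 (SE 0.15, -0.62 to 0.09, adjusted p 1.00). Its second probe was lower on each RUNX1 array, at 7.57, 7.26 and 7.89 beside 7.92, 8.20 and 8.58, a difference of -0.66 with a p of 0.022 and an adjusted p of 1.00 over the 18867 probes tested with limma. It was the 1 probe of 45 passing member probes with an unadjusted p under 0.05, beside 2.92% of all probes. PDIA5 was at 9.24, 9.46 and 10.22 with RUNX1 and at 9.40, 10.10 and 10.30 with MCS. Here too RUNX1 replicates 1 and 2 and MCS replicate 1 were the 3 low arrays, by a gap of 0.63, and the interval of the difference, -1.04 to 0.46, was wide. With the side as a block the difference was -0.011. P4HB (PDI itself), PDIA4 and PDIA6 had differences of -0.09, -0.12 and -0.11. DNAJC10 (ERdj5), a reductase of the degradation pathway, had a positive one of 0.17, which was -0.045 without normalization.

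In ER-associated degradation 7 of 9 tested members had a higher mean with RUNX1, beside 55.4% of all genes, with a median difference of 0.12. Under median scaling 5 of 9 did, beside 28.6% of all genes, and without normalization 3 of 9 did, beside 15.2%. Count and median were 5 of 9 and 0.044 without MCS replicate 1, and 5 of 9 and 0.084 without RUNX1 replicate 3. With array weights they were 4 of 9 and -0.025. With any other array left out the count was 7 or 8 of 9. The only probe of SEL1L, the partner of the ubiquitin ligase SYVN1 (HRD1), was not above background on any array. OS9, a lectin that recognises glycoproteins to be degraded, was at 7.28, 7.54 and 6.78 with RUNX1 and at 7.12, 6.86 and 6.59 with MCS. Its difference, 0.35 (SE 0.23, -0.20 to 0.89, fold 1.27, adjusted p 1.00), was the largest of the list in this processing. It was 0.20 without background correction, below the 0.25 of CANX, and RUNX1 replicate 3 lay below 2 of the MCS arrays. EDEM3, which trims mannose from misfolded glycoproteins, was at 6.81, 6.73 and 6.71 with RUNX1 and at 6.52, 6.87 and 5.99 with MCS. Its difference of 0.29 (-0.23 to 0.81) was 0.055 with MCS replicate 3 left out, the array with the lowest value. The difference was 0.13 without background correction and in the deposited processed values. Of the 3 probes of EDEM3, 1 passed and the others were not above background on any array.

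SYVN1 was at 8.50, 8.59 and 9.005 with RUNX1 and at 8.33, 8.62 and 8.69 with MCS, and its second probe, detected on 3 of 6 arrays, differed in the opposite direction, 0.15 against -0.25. DERL3, a derlin known as an ER stress target, was at 6.81, 6.29 and 6.93 with RUNX1 and at 5.80, 6.65 and 6.97 with MCS. MCS replicate 1 was the lowest array, and without it the difference of 0.21 (-0.54 to 0.96) became -0.13. EDEM1 and EDEM2 had differences of -0.08 and -0.14, and ERLEC1 and DERL2 of 0.12 and 0.045. Among the translocation and export genes, SEC61B and SEC61A1, subunits of the channel through which proteins enter the ER, differed by -0.00022 and 0.056, and SEC24D, a coat protein of vesicles leaving the ER, by 0.0081. SEC61B had the narrowest range of the members, 0.141.

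**Figure D5:**
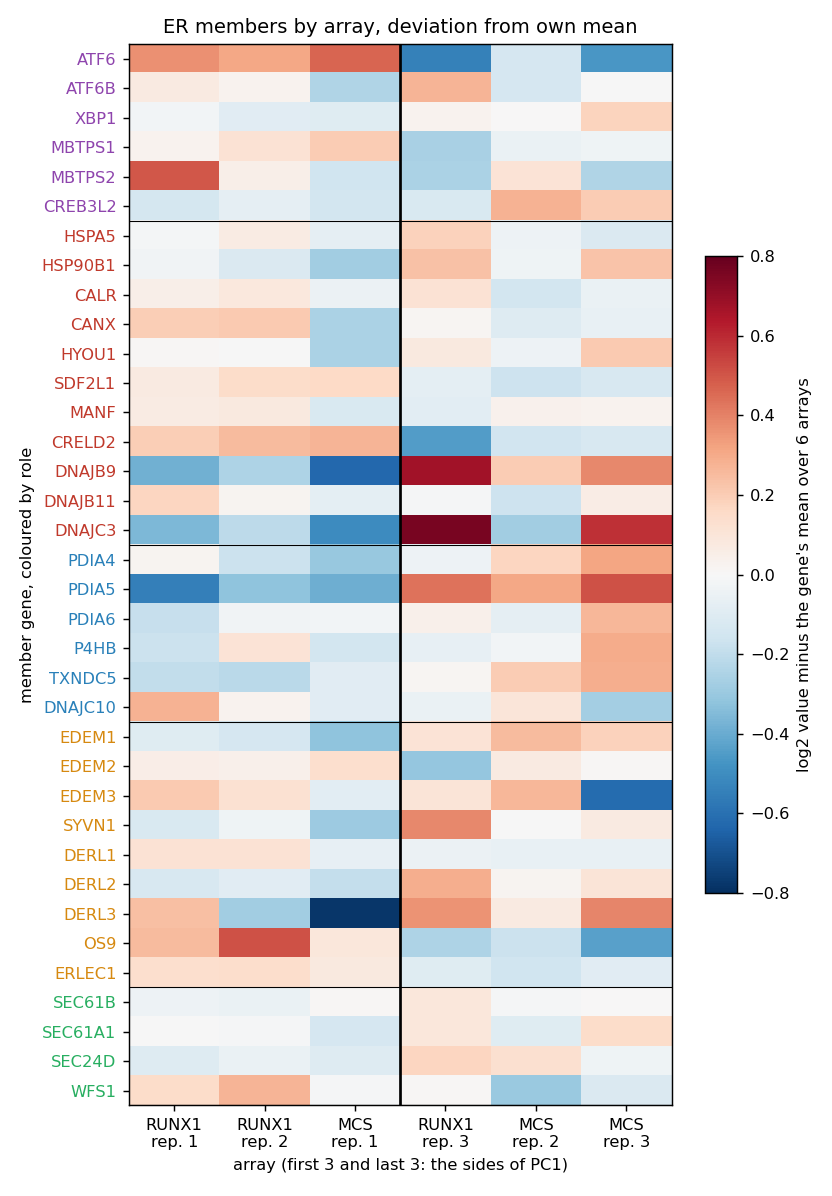
Colour gives the log2 value of each tested member on each array minus the mean of that gene over the 6 arrays, with rows grouped by role and the arrays of the first and second side of the first principal component left and right of the thick line. DNAJB9, DNAJC3 and PDIA5 are blue on the left and mostly red on the right, ATF6, CRELD2 and OS9 run the other way, and MCS replicate 1 has 8 of 36 members above their mean.

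The separation of the arrays that crosses the transductions was visible in many members. Of the 36, 14 (38.9%) had no overlap between the sides, beside 44.4% of all genes, a share not above that background in this processing. The order was reversed under median scaling (38.9% beside 31.3%) and with no filter on detection (38.5% of 39 members beside 30.2%). Without normalization the members' share was also the higher one, 27.8% beside 26.98%. With the other settings of background, normalization, filter and probes it stayed below that of all genes. Since the sides come from the same arrays, these shares are descriptions. ATF6, MBTPS1, CRELD2, SDF2L1, OS9 and ERLEC1 were higher on the first side, and XBP1, DNAJB9, PDIA5, TXNDC5, EDEM1, SYVN1, DERL2 and SEC24D were lower there, or 6 and 8 members beside 26.3% and 18.1% of all genes. ATF6 and CRELD2, the latter at 10.38, 10.43 and 9.74 with RUNX1 and at 10.45, 10.03 and 10.06 with MCS, therefore ran against DNAJB9 and XBP1. DERL2 was another gene whose second probe ran opposite to its first.

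Within both sides, RUNX1 arrays were all above MCS arrays for 11 of 36 members (30.6%), beside 13.3% of all genes, and all below for 5 (13.9%), beside 12.7%. The 11 were HSPA5, HSP90B1, CALR, CANX, DNAJB9, DNAJC3, ATF6B, SYVN1, DERL1, DERL2 and WFS1. Under median scaling they were 3 (ATF6B, DNAJB9 and HSP90B1), or 8.33% beside 2.84% of all genes, and without normalization 2 (ATF6B and DNAJB9), or 5.56% beside 1.05%. With the side entered in the fit as a block, 0 members and 0 genes passed an adjusted p under 0.05 in limma, and the smallest adjusted p of a member was 0.594. Unadjusted, 3 members were under 0.05, or 3 of 36 beside 7.23% of all genes: DNAJB9 (difference 0.35), ATF6B (0.32) and SYVN1 (0.28). ATF6 changed sign in that fit, to -0.18. The sides hold 3 arrays each with 1 array of one group, so these differences rest on 1 array against 2.

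Set beside the promoters shown above, the 7 members with an ERSE (all tested) had a median difference of 0.058, with 5 of 7 higher and 3 of 7 (HSPA5, CALR and CANX) not overlapping with RUNX1 higher. The 24 tested members whose windows held neither ERSE nor ERSE-II had a median of 0.050, with 15 higher and 2 not overlapping (3.81% of all genes did not). DERL1, the remaining non-overlapping member, had no matched window and is in neither group. Under median scaling and without normalization 0 members were apart with RUNX1 higher, with an ERSE or without. The sides were apart for 2 of the 7 and 10 of the 24, beside 44.4% of all genes, and the range over arrays had a median of 0.45 and 0.531. HYOU1 and SDF2L1, with an ERSE-II, had differences of 0.06 and 0.092.

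A further 100 genes of the pathway, in 6 lists, were examined, of which 92 were tested and 0 passed in either direction. Their median difference was 0.043, and 8 were higher on each RUNX1 array (8.70%) and 2 lower (2.17%), beside 3.81% and 2.75% of all genes. In the COPII and ER exit list 2 of 14 (14.3%, beside the same 3.81%) did not overlap with RUNX1 higher: SEC24A, a cargo-binding coat protein, at 6.17, 5.99 and 5.70 beside 5.23, 5.46 and 5.52, and SAR1B, the GTPase that starts the coat, at 10.94, 10.97 and 11.17 beside 10.82, 10.64 and 10.68. Their differences were 0.55 (SE 0.16, 0.16 to 0.93) and 0.31 (SE 0.13, 0.0040 to 0.61), with unadjusted p-values of 0.012 and 0.048 and adjusted p-values of 1.00 in limma. The signal of SEC24A was near background: its difference was 0.21 without background correction and in the deposited processed values, and it did not pass the stricter filter. That of SAR1B was 0.014 with the mean of its detected probes. Among the other ER folding and redox factors the share was larger, with 4 of 22 (18.2%) not overlapping with RUNX1 higher and 1 (4.55%) with RUNX1 lower. The lower one was FKBP10, a prolyl isomerase of the ER, by 0.37 (-0.71 to -0.03, adjusted p 1.00 in limma). QSOX1, a sulfhydryl oxidase, was higher on each RUNX1 array, by 0.26 (-0.05 to 0.57), as were DNAJB12 (0.26), KDELR1 (0.17) and SDF2 (0.16).

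Of the remaining lists none had a gene with an unadjusted p under 0.05. The smallest p-values were those of MAN1B1 (-0.18) and STT3B (0.19) in glycosylation, SEC11C (0.19) and SSR2 (-0.20) in translocation, and UBE2J1 (0.20) and HERPUD2 (-0.19) among other degradation factors. In the PERK arm of the response, whose kinase EIF2AK3 reduces translation and favours ATF4, 6 of 10 tested genes were lower on the first side without overlap (ATF4, DDIT3, PPP1R15A, TRIB3, ASNS and ATF3), beside 18.1% of all genes, 0 were higher, beside 26.3%, and the median range over arrays was 1.05. DDIT3 (CHOP) was at 8.68, 8.60 and 10.05 with RUNX1 and at 8.23, 9.55 and 9.75 with MCS, with the same 3 arrays high as for DNAJB9. EIF2AK3 and SESN2 had differences of 0.19 and 0.14, both with intervals that included 0.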

How the data were processed

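Total RNA of HEK-293T cells was amplified by the authors and the resulting cRNA hybridized, on 3 arrays per transduction. The authors deposited an intensity for each probe on a linear scale, with no background subtracted or normalization applied, and beside it a detection p-value against the negative controls of the array. The authors also deposited processed values, treated here as log2, made with lumi (its version and its transformation are not given in the sources used here). Arrays were grouped by the labels. The paper describes the arrays as biological triplicates, and the labels name no separate cultures, so p-values measure the spread between these arrays.

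In R 4.3.3, limma 3.58.1 (neqc, offset 16, quantile) gave log2 values. A probe was kept if its detection p was below 0.05 on 3 or more arrays, the brightest probe stood for its gene, and lmFit and eBayes were run on the transduction alone (7.19 moderated degrees of freedom, 4 from the arrays). Platform annotation gave 30113 probes 1 symbol, 8 several and 17110 none, and 30074 matched RefSeq genes of GRCh38.p14. The number of arrays limits the precision.

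The members and lists were chosen with earlier results of these data known. The text names HSPA5, HSP90B1, ATF6, ATF6B, ERN1 and XBP1, the 6 members with the largest difference, the 8 with the widest range, members without a passing probe, members whose probes differed in opposite directions by over 0.3, and up to 2 genes of each pathway list by p. Other members are named for their role. DDIT3 and the separated and non-overlapping genes were named after their values were seen. Alternatives covered background correction, normalization, the authors' processed values, detection filters, the mean of probes, array weights, the methods' t-test, a trend in eBayes, a block (replicate number or side), and each array left out. The count of members apart between groups, that within both sides and that by role with each array left out were added after seeing the data.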

Additional observations from a re-analysis of the deposited data

How the results depend on the processing

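Array weights moved the count of genes called from 0 to 897 (8.06%) and that of members from 0 to 3 (8.33%): OS9 (0.57), WFS1 (0.47) and TXNDC5 (-0.39), with adjusted p-values of 0.049, 0.045 and 0.048 in limma. The cause was not tested. SEC24A (0.57) and FKBP10 (-0.43) also passed there. Under all other alternatives 0 genes and 0 members passed. The members' median difference was -0.096 without normalization, -0.017 under median scaling, and 0.0034 to 0.091 with each array left out. The 6 non-overlapping members became 0 under both scalings, and the 11 higher within both sides became 2 without normalization and 3 under median scaling. The median difference over all genes was also lower there, at -0.17 without normalization and -0.088 under median scaling, beside 0.021 after quantile normalization.

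The t-test, the eBayes trend and the replicate block leave each difference as it is, so they could not change a sign. The other detection filters left the same values for those named genes that were still tested. Of 607 values of the 29 genes that the naming rule chose, these settings included, 43 changed sign, none of them past the threshold. Without normalization these were HSPA5 (-0.036), HSP90B1 (-0.084), ATF6 (-0.098), DNAJB9 (-0.16), DNAJC3 (-0.083), MBTPS2 (-0.025), HYOU1 (-0.16), SYVN1 (-0.054), STT3B (-0.023), UBE2J1 (-0.0089) and SESN2 (-0.080), and members outside the rule, among them CALR (-0.024) and DERL1 (-0.085), turned there too. Under median scaling they were HSP90B1 (-0.0050), ATF6 (-0.019), DNAJB9 (-0.076), DNAJC3 (-0.0043), HYOU1 (-0.078) and SESN2 (-0.0015). With the mean of all detected probes they were MBTPS2 (-0.0087), HYOU1 (-0.11) and SYVN1 (-0.050). With array weights they were HSP90B1 (-0.053), DNAJB9 (-0.41), DNAJC3 (-0.032), DERL3 (-0.13), SYVN1 (-0.025) and EIF2AK3 (-0.23), and with the side as a block ATF6 (-0.18). Leaving out each array gave ATF6 from -0.12 to 0.38, MBTPS2 from -0.0041 to 0.37, HSP90B1 from -0.068 to 0.19, DNAJB9 from -0.30 to 0.23, DNAJC3 from -0.22 to 0.45, SYVN1 from -0.0032 to 0.25, DERL3 from -0.13 to 0.46, HYOU1 from -0.058 to 0.18, EIF2AK3 from -0.14 to 0.44, SESN2 from -0.068 to 0.35 and XBP1 from -0.12 to 0.019.

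Replicate numbers did not pair the arrays: deviations of same-numbered arrays correlated at 0.57, -0.35 and 0.70. With the replicate block 0 genes and 0 members were called. Each replicate number holds an array of each group, so this block cannot change the members' median of 0.057. Signals near background limit the dim probes: the difference of ATF6B, 0.25, was 0.099 in the deposited processed values.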
